A study of Mus musculus with 4 samples.

Results

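Cytosolic ribosomal protein genes were measured in whole hearts of mice, in wild-type animals and in heterozygous animals, on 1-colour oligonucleotide arrays. The members were the genes whose array annotation gave a single symbol of the Rpl or Rps series, Rplp genes, Rpsa and Fau, without S6 kinase genes and annotated pseudogenes. The annotation named 36 such genes of 8251 genes in all, on 50 of 12422 probe sets. Each genotype was represented by 2 arrays, and each array carried total RNA of a pool of 5 hearts. All mice were adult males, 8 to 16 weeks old, of 129/Black Swiss background, and no treatment was named. The pools were numbered 1 and 2 within each genotype, and nothing says that they came from separate animals or days, so that p-values measure only the spread between these 4 samples.

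Every cytosolic ribosome is built of a small subunit, which reads the messenger RNA, and a large subunit, which joins the amino acids. Each subunit holds ribosomal RNA and many proteins, and an unpartnered ribosomal protein is usually degraded. The messenger RNAs of these proteins share a tract of pyrimidines at their start, the TOP motif, through which the kinase mTOR and the protein LARP1 adjust their translation. Ribosomal protein messages are among the most abundant in most tissues, and they are particularly abundant in growing and dividing cells.

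The values are signal intensities in the authors' arbitrary units, scaled by them to nearly the same trimmed mean on each array. Median signals ran from 508.85 to 608.55 over the 4 arrays. Log2 signals correlated at 0.973 and 0.972 between the pools of a genotype and at 0.856 to 0.867 between genotypes, across probe sets, which are not independent. All 12 cardiomyocyte markers were tested; 11 of them rose in heterozygous mice, among them Tnnt2, cardiac troponin T (log2 change 0.61, limma adjusted p = 0.00539), and their summed signal was 547806 to 605730 in the wild-type pools and 862915 to 883218 in the heterozygous pools. The number that rose was 12 with arrays set to a common median, 7 under quantile normalization, 4 under cyclic loess and 2 when every probe set was tested. Over all tested probe sets 17.7% rose on the deposited scale, and 3.88% when every probe set was tested. The tissue label thus stood beside strong cardiac markers in all pools. Lymphocyte and thymus markers were strong in the wild-type pools as well: the 20 measured genes of that list summed to 187184 to 193192 there and to 29862 to 30149.5 in the heterozygous pools. All 19 that were tested fell (18 under each of the other 3 scalings), among them Rag1, of antigen receptor recombination (log2 change -3.08), and Cd8b1, a T cell coreceptor (log2 change -5.16), and no gene of the list had all its signals under the floor of 36.25 used here.

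Of the 36 ribosomal protein genes, 25 had a probe set bright enough to be tested, and a gene with several was represented by the brightest. In the heterozygous pools 13 of these 25 fell and none rose, by limma with Benjamini-Hochberg adjustment over all 7454 tested probe sets and a threshold of 0.05. Among all tested probe sets 19.8% fell and 17.7% rose. Among all 5704 tested genes, taken at their brightest probe set, 19% fell and 19.2% rose. The median log2 change of the 25 genes was -0.41, or 1.33-fold lower, beside 0.01 for all tested probe sets. At an unadjusted p under 0.05, 14 members were lower and 0 higher. Limma without a mean-variance trend called 8 lower (32%, beside 18.5% of all tested probe sets) and 0 higher. The count of lower members was 4 without heterozygous pool 1 and 3 without heterozygous pool 2, with median log2 changes of -0.35 and -0.43. These counts are 16% and 12% of the members, beside 15.1% and 14.4% of all tested probe sets that were lower in the same fits, so without either heterozygous pool the share of members called lower was near the background. The count was 4 of 36 (11.1%) when every probe set was tested, beside 5.83% of all probe sets.

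**Figure D1:**
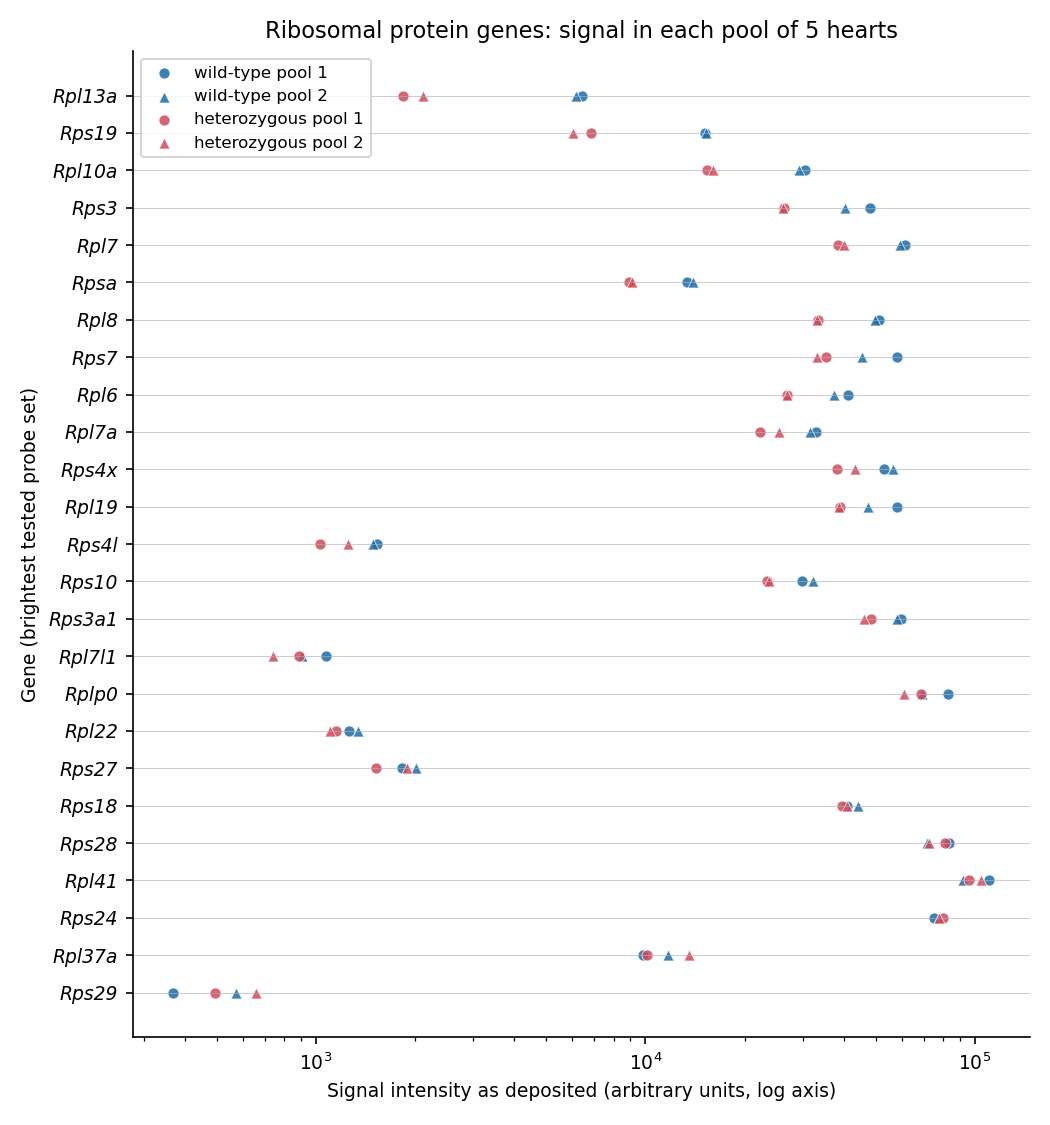
Signal intensity (arbitrary units, log axis) of the 25 tested ribosomal protein genes in each of the 4 pools, 1 point per pool, ordered by log2 change with the largest decrease at the top. Both heterozygous pools lie below both wild-type pools in 19 genes, and the groups overlap in the other 6.

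Both heterozygous pools lay below both wild-type pools in 19 of the 25 genes, and in none did they both lie above; over all tested probe sets 35% lay below and 34.7% above, and over all tested genes 34.1% and 36.3%. Summed over the 25 genes, the signal was 966844 and 894322 in wild-type pools 1 and 2, and 744382 and 744877 in heterozygous pools 1 and 2. These sums were 3.51%, 3.36%, 2.60% and 2.62% of all signal on the array, in the same order. The heterozygous pools were nearly equal and both below the wild-type pools. Heterozygous pool 1 was the lowest of the 4 pools in 11 genes and heterozygous pool 2 in 9, while a wild-type pool was the highest in 15 and 7 genes. Within a genotype the members moved little: the median absolute log2 difference between pools was 0.10 in wild type and 0.09 in the heterozygous pools, against 0.41 between the genotypes. In RNA of whole tissue, fewer cells of a type and less RNA per cell cannot be told apart. The lymphocyte and thymus markers, whose summed signal fell in the same pools as described above, had a median log2 change of -2.81, and all 17 tested cell cycle genes fell, with a median of -2.37. The part of these cells in the ribosomal protein result was not tested.

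Genes of both subunits were among those that fell. Of 12 tested large-subunit genes, 7 fell (58.3%) and 5 were not past the threshold; their median log2 change was -0.44. Of 13 tested small-subunit genes, 6 fell (46.2%) and 7 were not past it; the median was -0.40. Over all tested genes 19% fell. The difference between the subunits was not tested. The changes within either subunit ran from strong decreases to values near 0, from -1.67 to 0.13 in the large and from -1.24 to 0.31 in the small subunit.

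Rpl13a, a large-subunit protein also known from a complex that silences inflammatory messages, had the largest change. Wild-type pools gave signals of 6398 and 6167, heterozygous pools 1835 and 2119.8. The genotypes were far apart and the pools of each lay close together, and the gene fell 3.19-fold (log2 change -1.67, SE 0.15, limma adjusted p = 8.9e-05). Rpl10a, which forms the mobile L1 stalk near the exit site, was measured by a pair of probe sets. The brighter gave 30506 and 29242 in wild type and 15383 and 16057.5 in the heterozygous pools, a 1.90-fold decrease (log2 change -0.93, SE 0.13, limma adjusted p = 6.9e-04). The other gave a log2 change of -0.86 (SE 0.13, limma adjusted p = 0.00117), so both probe sets of this gene fell by similar amounts. The name of this dimmer probe set carries a mark of a design shared among related sequences.

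In the small subunit Rps19, the gene most often mutated in Diamond-Blackfan anaemia, changed most. Wild-type pools gave signals of 15125 and 15228, heterozygous pools 6817 and 6026. It fell 2.37-fold, and the wild-type pools were nearly equal (log2 change -1.24, SE 0.14, limma adjusted p = 2.2e-04). Rps3, which lines the entry of the messenger RNA channel and also binds damaged DNA, had signals of 47933 and 40445 in wild type and 26376 and 26054 in the heterozygous pools. It fell 1.68-fold (log2 change -0.75, SE 0.14, limma adjusted p = 0.00292). This call ended without heterozygous pool 2 (log2 change -0.75 with it and -0.74 without it) and without the filter on dim probe sets. Rpl13a, Rps19 and Rpl10a were the 3 members whose calls held in all 15 alternative fits of single genes, the 4 fits without 1 pool included.

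The other 9 genes that fell changed by 1.32-fold to 1.53-fold, and in each of them both heterozygous pools were below both wild-type pools. Rpl7, of the large subunit, had signals of 61222 and 59134 in wild type and 38486 and 40033 in the heterozygous pools (log2 change -0.62, SE 0.12, limma adjusted p = 0.00465). Its probe set is of a kind that can detect several related transcripts. Rpsa, the small-subunit protein also described as a laminin receptor, had 13407 and 13901 in wild type and 8911 and 9119 in the heterozygous pools (log2 change -0.60). Rpl8, close to the site where peptide bonds are made, had 50994 and 49578 in wild type and 33499 and 33045 in the heterozygous pools (log2 change -0.60). In these genes the pools of a genotype differed by far less than the genotypes did. Rps7 had a wider spread in wild type, with 57804 and 45539, against 35190.3 and 33158 in the heterozygous pools (log2 change -0.59, SE 0.15, limma adjusted p = 0.0138). Rpl6 had 41276 and 37344 in wild type and 26812 and 26871 in the heterozygous pools (log2 change -0.55). The smallest decreases past the threshold were those of 4 genes. Rpl7a had 32966 and 31497 in wild type and 22237 and 25405 in the heterozygous pools (log2 change -0.44). Rps4x, the X-linked form of its protein, had 52973 and 56514 in wild type and 38049 and 43166 in the heterozygous pools (log2 change -0.43). Rpl19 and Rps10 had log2 changes of -0.43 and -0.40. In the order named, the limma adjusted p values of these 4 were 0.0289, 0.0297, 0.0393 and 0.0345. The calls of Rpl7, Rpsa, Rpl8, Rps7, Rpl6, Rpl7a, Rps4x, Rpl19 and Rps10 each ended without heterozygous pool 1, without heterozygous pool 2 and with arrays set to a common median. Those of Rpl7a and Rpl19 also ended without wild-type pool 1, and those of Rps4x and Rps10 without wild-type pool 2.

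**Figure D2:**
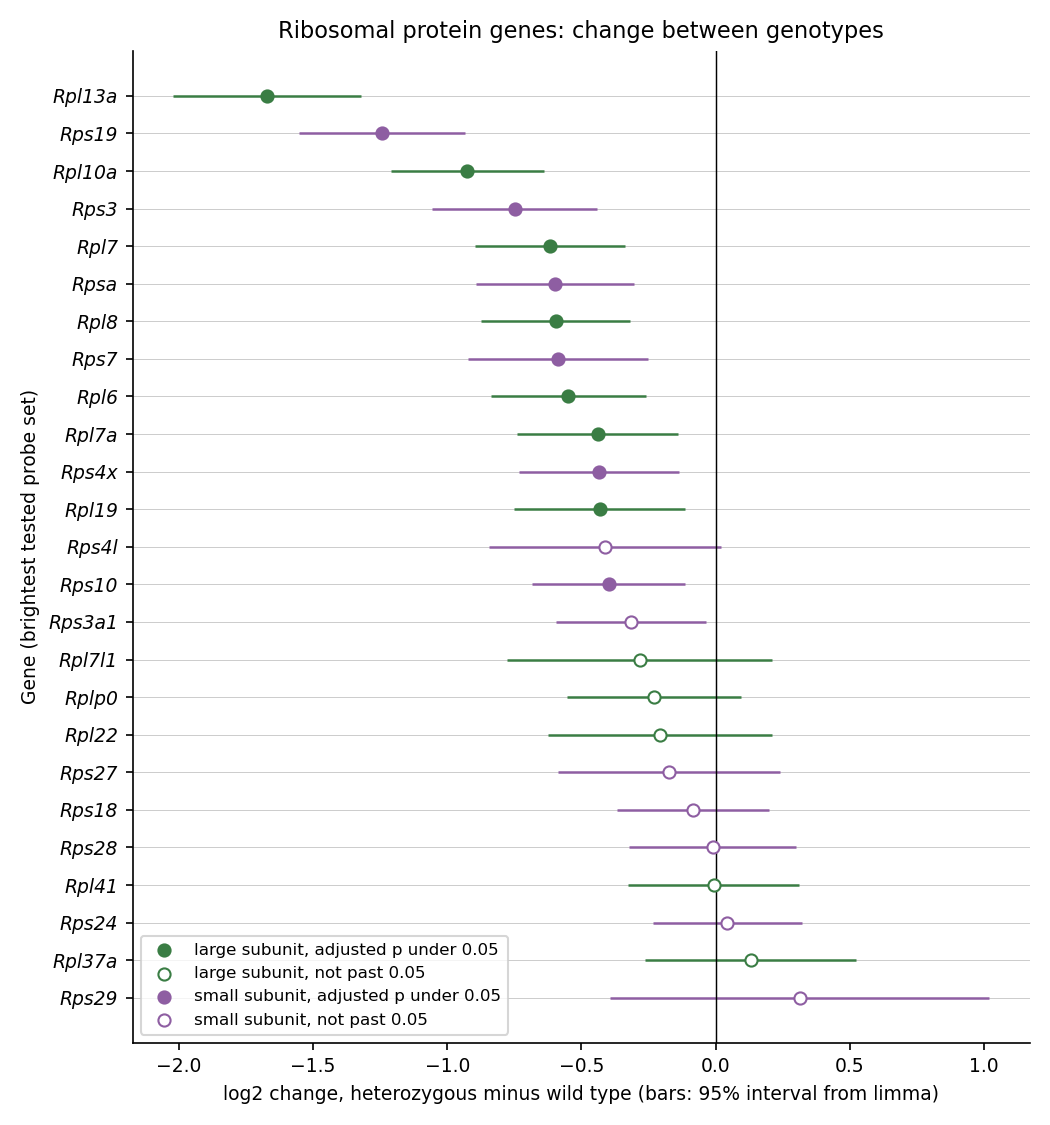
Log2 change (heterozygous minus wild type) of the 25 tested ribosomal protein genes, with 95% intervals from limma as bars, green for the large and purple for the small subunit. Filled points passed the adjusted threshold of 0.05; all 13 lie left of 0, from -1.67 for Rpl13a to -0.40 for Rps10.

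Of the 12 tested genes that did not pass, 9 had a log2 change below 0 and 3 above. Rps3a1 was nearest to the threshold, with signals of 59608 and 57945 in wild type and 48362 and 46069 in the heterozygous pools (log2 change -0.32, limma adjusted p = 0.0734), and it fell past the threshold with cyclic loess, with quantile normalization and with the pool number as a block. Rplp0, the base of the stalk that recruits elongation factors, had 83024 and 69236 in wild type and 68641 and 60839.7 in the heterozygous pools. Its log2 change of -0.23 had a 95% interval of -0.55 to 0.09. Rps18, in the head of the small subunit, had 40897 and 44261 in wild type and 39482 and 40798 in the heterozygous pools, and its log2 change of -0.08 had an interval of -0.37 to 0.20. Rpl13a, Rplp0 and Rps18 are all in wide use as reference genes for quantitative PCR, and their log2 changes here were -1.67, -0.23 and -0.08.

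Of the 4 members with a mean signal over 60000, Rpl41, Rps28 and Rps24 had log2 changes near 0 on the deposited scale, and Rplp0 had -0.23. The dimmer Rps18 (-0.08) and Rpl37a (0.13) were nearer to 0 than Rplp0. Under cyclic loess all 4 of the bright members fell. Rpl41, which encodes a very short basic peptide, had signals of 110252 and 91666 in wild type and 95833 and 104337 in the heterozygous pools, so that its groups overlapped (log2 change -0.01, 95% interval -0.33 to 0.31). Rps28 had 83479 and 71584 in wild type and 81006 and 72630.3 in the heterozygous pools on its brighter probe set (log2 change -0.01). Its second probe set gave a log2 change of -0.25 (limma adjusted p = 0.183), with both heterozygous pools below the wild-type pools. The probe set annotated as Rps24 had 75111 and 77664 in wild type and 79969 and 77544 in the heterozygous pools (log2 change 0.04). The annotation gives this probe set the same source sequence as the tested probe set of Rpl7, which fell, and the other probe set of Rps24 was dim, so its identity is uncertain. Without it 13 of 24 tested genes fell (54.2%, beside 19.8% of all tested probe sets) and the median log2 change was -0.42. Without rescaling, none of the 4 members with a mean signal over 60000 (Rplp0, Rps24, Rps28 and Rpl41) passed, whereas 13 of the 16 with a mean signal from 3000 to 60000 fell and none of the 5 dimmer ones did; these bounds were chosen after the values were seen. Across the 20 members above 3000, Pearson's r between log2 change and mean log2 signal was 0.70 and Spearman's rho was 0.60. Over all 25 they were -0.004 and 0.12, and over all tested probe sets 0.14 and 0.15. These correlations are across genes measured on the same 4 arrays and are given as a description. Under cyclic loess the log2 changes of Rplp0, Rps24, Rps28 and Rpl41 were -0.62, -0.36, -0.41 and -0.44 (limma adjusted p = 0.0018, 0.026, 0.010 and 0.010), and under quantile normalization Rplp0, Rps28 and Rpl41 passed as well. The pattern with brightness thus depended on the scaling between arrays. The probe sets of Rpl41 and Rps24 and the brighter one of Rps28 have names that carry a mark of shared or relaxed design. Those of Rplp0 and the second one of Rps28 do not, and on the deposited scale they gave -0.23 and -0.25. The part of probe set design in the pattern was not tested.

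**Figure D3:**
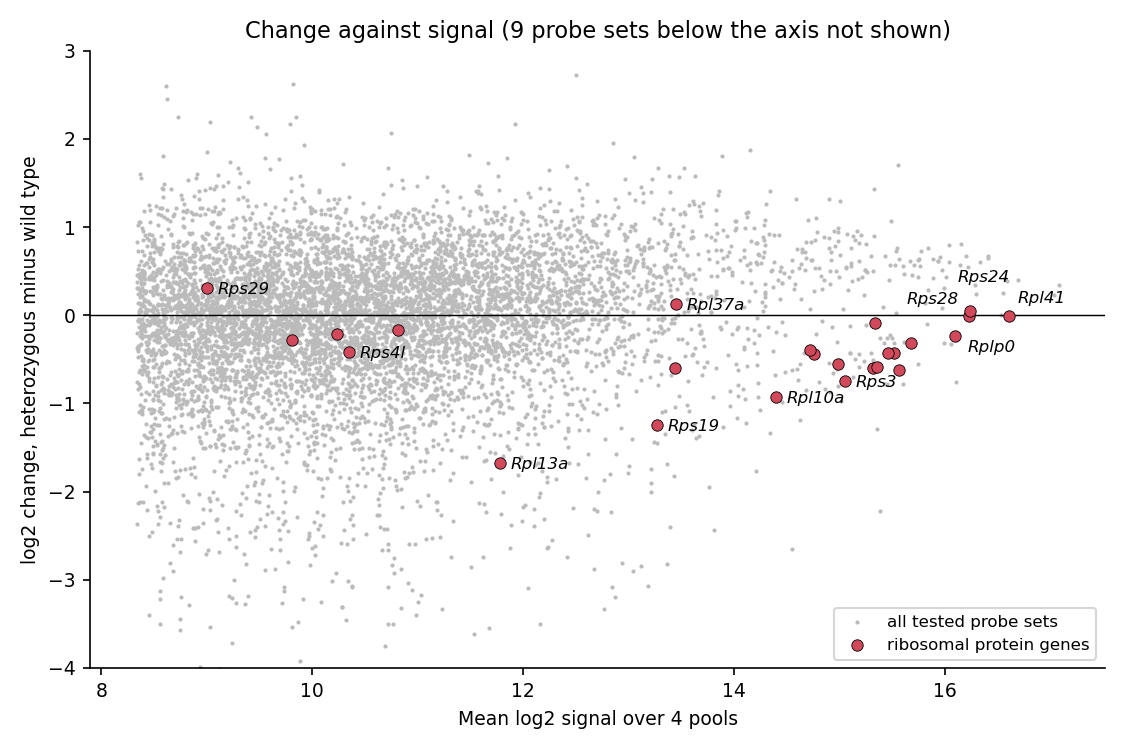
Log2 change (heterozygous minus wild type) against the mean log2 signal over 4 pools, for all 7454 tested probe sets in grey and the 25 ribosomal protein genes in red; 9 grey points lie below the axis. On the deposited scale Rpl13a lies at -1.67, Rpl41, the brightest member, at -0.01, and Rplp0, also bright, at -0.23. Under cyclic loess Rpl41 was at -0.44.

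Among the remaining members that did not pass, Rpl37a and Rps29 had log2 changes above 0. Rpl37a had 9823 and 11669 in wild type and 10107 and 13586 in the heterozygous pools (log2 change 0.13, 95% interval -0.26 to 0.52), with groups that overlapped. Rps29 was dim, with 369.3 and 570.9 in wild type and 495.3 and 657.5 in the heterozygous pools (log2 change 0.31, 95% interval -0.39 to 1.02). Rpl22, which alpha-beta T cells need for their development, had 1260.2 and 1337 in wild type and 1149 and 1099.7 in the heterozygous pools on its brighter probe set (log2 change -0.21), and a log2 change of 0.11 on the other, so its probe sets differed in sign and neither passed. Rps27 had 1825 and 2006 in wild type and 1523 and 1889.8 in the heterozygous pools, which overlapped (log2 change -0.17).

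The rule also took in 4 relatives of ribosomal proteins. Rps4l, a relative of Rps4x, had signals of 1527 and 1487 in wild type and 1025.5 and 1251 in the heterozygous pools (log2 change -0.41, limma adjusted p = 0.121), close to the -0.43 of Rps4x, on a probe set that can detect related transcripts. Rpl7l1, a nucleolar relative of Rpl7, had 1075 and 907.3 in wild type and 890.6 and 739.2 in the heterozygous pools (log2 change -0.28, limma adjusted p = 0.342). Rpl39l and Rps27l were too dim to be tested.

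The 11 untested genes were Fau, Rpl32, Rpl35a, Rpl38, Rpl39, Rpl39l, Rps13, Rps14, Rps15, Rps20 and Rps27l. All their signals, and those of the 10 untested probe sets of tested genes, lay between 16.1 and 619.8, with a median of 112, and 13 of these 88 values were below the floor. Fau, whose product is a ubiquitin-like protein fused to a small-subunit protein, had 165.1 and 173.6 in wild type and 105.9 and 312.1 in the heterozygous pools. Rps14, whose loss marks a form of myelodysplasia, had 22.7 and 88.1 in wild type and 44 and 90.6 in the heterozygous pools. Rps13 had 117.5 and 254.9 in wild type and 447.9 and 229.7 in the heterozygous pools. Rpl39, near the end of the exit tunnel, had 240.6 and 98.8 in wild type and 20 and 76.3 in the heterozygous pools. The groups overlapped in Fau, Rps14 and Rps13 and did not in Rpl39, at signals too low for a test. The lowest mean signal of a tested member was 523.25, and the highest mean signal of an untested gene was 262.5, that of Rps13. Rps4x shows how much signals depend on the probe set: its tested probe set gave 38049 to 56514 over the pools, and 4 others named for the same gene were not bright enough for testing.

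A further 39 probe sets listed a ribosomal protein symbol beside other symbols, such as those of pseudogenes and predicted genes, and cannot be assigned to 1 gene. Of the 32 that were tested, 13 fell (40.6%) and none rose, with 29 log2 changes below 0 and a median of -0.32. Their summed signal was 4.43% and 4.14% of all signal in the wild-type pools and 3.15% in each heterozygous pool. Of the 28 tested single-symbol probe sets of members 14 fell (50%) and none rose; the difference between the 2 kinds was not tested. The mouse genome holds many processed pseudogenes of ribosomal protein genes, as background. With plain probe sets only, those whose names carry no mark of shared or relaxed design, 12 of 21 tested members fell. This is 57.1%, beside 19.8% of all tested probe sets, and the median log2 change of these members was -0.43.

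The scale between arrays bears on the size of these values. When each array was set to the same median, the log2 changes of all tested probe sets rose together by 0.18. The median of the members was then -0.23 and that of all tested probe sets 0.19; such a shift leaves the difference between these medians as it was, by construction. With it 4 members fell (16%) beside 14.99% of all probe sets, and none rose. Under quantile normalization 17 members fell (68%), beside 17.4% of all tested probe sets, with medians of -0.59 and 0.11. Under cyclic loess 19 fell (76%), beside 19.7% of all, with medians of -0.69 and 0.03. Again none rose. The log2 changes of Rps18, Rpl41, Rps28 and Rps27 were above 0 with the common median, and those of Rpl37a and Rps24 below 0 under quantile normalization and cyclic loess. All 13 genes that fell on the deposited scale kept a log2 change below 0 in each alternative.

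**Figure D4:**
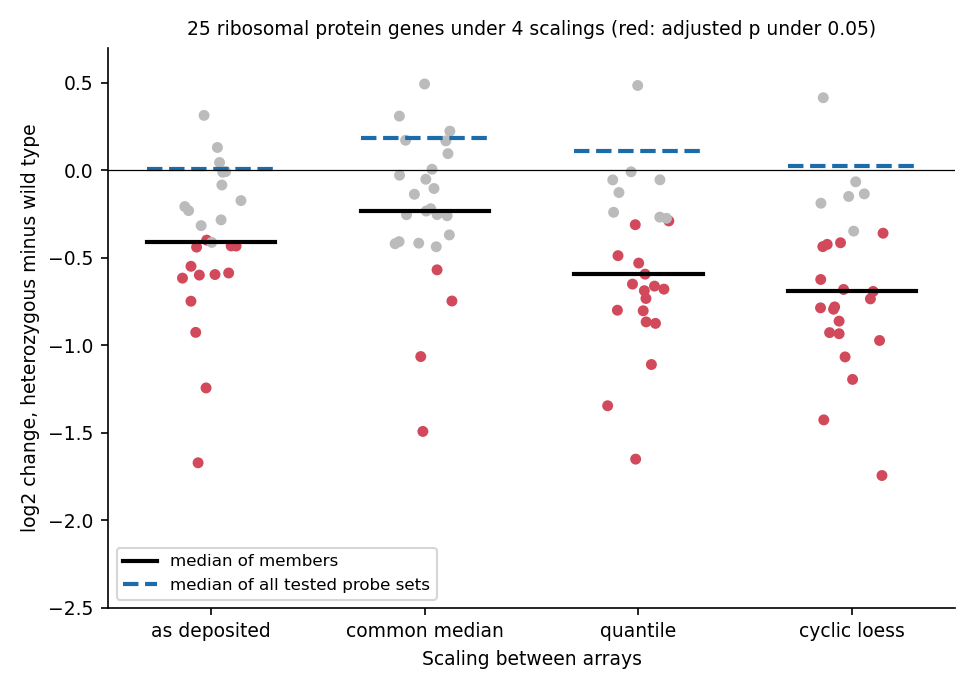
Log2 change (heterozygous minus wild type) of the 25 ribosomal protein genes under 4 scalings between arrays, 1 point per gene, with red points past the adjusted threshold of 0.05. The black bar is the median of the members, at -0.41, -0.23, -0.59 and -0.69 from left to right, and the dashed blue bar is the median of all tested probe sets.

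The start regions of these genes were searched for features by which ribosomal protein promoters are known, and not every member carries each of them. Start regions are given here for members with the largest changes and for members whose changes were small. RefSeq promoter sequences of GRCm38.p6, from 250 bases before to 50 bases after each annotated start, were at hand for 29 of the 36 members. In each, the longest run of pyrimidines within 50 bases of the start was found on the gene's own strand, since the TOP motif is such a run. Where a gene had several listed starts, the start with the longest run was used. Among the genes shown this applied to Rps19, with 3 listed starts, and Rpl10a, with 2. The windows of 30 bases below are written along the gene's strand, with that run in capitals.
Rpl13a: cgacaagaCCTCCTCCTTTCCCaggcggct
Rps19: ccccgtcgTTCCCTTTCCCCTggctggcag
Rpl10a: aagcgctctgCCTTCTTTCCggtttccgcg
Rps3: cgcaaaacttcaTTTCCCatgcaaaacttc
Rpl7a: acaaTTCCCTCTTCTTTCTTTCTCCagcag
Rps18: tcacttccgCTCTCTCTTCCacaggaggcc
Rpl37a: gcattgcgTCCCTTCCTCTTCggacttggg
Rpl41: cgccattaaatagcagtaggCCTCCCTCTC
Rps28: ctgtcccgaggaTTCCTgggtaccgcgtgc
The windows lie at chr7:45128722-45128751 on the minus strand for Rpl13a, chr7:24884623-24884652 on the plus strand for Rps19, chr17:28328572-28328601 on the plus strand for Rpl10a and chr7:99483739-99483768 on the minus strand for Rps3. That of Rpl7a, shown because its run of 21 bases was the longest of all members, lies at chr2:26910789-26910818 on the plus strand. Those of the members near 0 lie at chr17:33955647-33955676 on the minus strand for Rps18, chr1:72711275-72711304 on the plus strand for Rpl37a, chr10:128549119-128549148 on the minus strand for Rpl41 and chr17:33824566-33824595 on the minus strand for Rps28. Positions are counted from 1 at the annotated start, with -1 the base before it. The run lay inside the annotated transcript in Rpl13a (bases 3 to 16), Rpl10a (18 to 27), Rpl37a (24 to 36) and Rpl41 (41 to 50). It spanned the start in Rps18 (-2 to 9) and Rpl7a (-14 to 7). In Rps19 (-45 to -33), Rps3 (-47 to -42) and Rps28 (-21 to -17) it lay wholly upstream of the annotated start used. A TOP motif lies at the start of the transcript, and the runs shown for these 3 genes are not there. Nor are those of Rpl10a, Rpl37a and Rpl41, which begin at bases 18, 24 and 41. The run of Rpl41 ends at the edge of the searched stretch. For Rps19 and Rpl10a these positions hold only for the start used, and positions at their other listed starts are not given.

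A run of at least 8 pyrimidines within 50 bases of an annotated start was found in 21 of the 29 members (72.4%) and in 39.2% of 17492 protein-coding genes. It was found in 8 of 11 members that fell and in 6 of 10 that did not pass. CGGAAG, the core bound by ETS factors such as GABP and searched on both strands of the 300 bases, was found in 19 members (65.5%) beside 23.5% of all protein-coding genes, in 7 of the 11 that fell and in 6 of the 10 that did not pass. GGGCGG, the core of the SP1 site, was found in 18 members (62.1%) beside 49.2% of all, in 9 of the 11 that fell and 4 of the 10 that did not pass. AANATGGC, the core of the YY1 site, was found in 8 members (27.6%) beside 7.46% of all, in 2 of the 11 and 4 of the 10. A match is a description of these letters and not of a bound site, and no difference between the genes that fell and the others was tested.

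Genes that make or use ribosomes were counted beside the members. In the list of other messages with a TOP motif the median log2 change was -0.47. Of 19 tested genes 10 fell (52.6%, beside 19.8% of all tested probe sets) and 1 rose. With the common median 7 fell (36.8%, beside 14.99% of all) and 2 rose (10.5%, beside 26.0% of all). Without the filter on dim probe sets 5 of 22 fell (22.7%, beside 5.83% of all). Gas5 and Snhg1, non-coding hosts of small nucleolar RNAs that begin with such a motif, fell 2.76-fold and 2.71-fold. Gas5 had signals of 7264 and 6716 in wild type and 2726 and 2349 in the heterozygous pools (limma adjusted p = 1.7e-04). Eef1a1, the elongation factor that brings transfer RNAs to the ribosome, had 105371 and 80423 in wild type and 57745 and 50957 in the heterozygous pools and fell 1.70-fold (limma adjusted p = 0.00561). Eef2, the translocation factor, had a log2 change of -0.08 (limma adjusted p = 0.711) and Tpt1 one of 0.25 (limma adjusted p = 0.147), so the list was not uniform. Eef1b2 had a log2 change of 1.12 on a dim probe set.

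Of 43 tested ribosome biogenesis genes 15 fell (34.9%) and none rose, with a median log2 change of -0.35. Npm1, the nucleolar chaperone nucleophosmin, also in the list of TOP messages, fell 2.35-fold, from 20704 and 18078 in wild type to 8840.2 and 7676 in the heterozygous pools (limma adjusted p = 3.1e-04). Gar1 and Nop56, of the particles that modify ribosomal RNA, fell 2.96-fold and 2.55-fold, and Emg1, which methylates the ribosomal RNA of the small subunit, fell 2.17-fold. With the common median 12 of the 43 biogenesis genes fell (27.9%, beside 14.99% of all tested probe sets) and 3 rose. Of 59 tested genes of the mitochondrial ribosome, which is built from another set of proteins, 8 rose (13.6%) and none fell (median log2 change 0.22), beside 17.7% of all tested probe sets that rose. With the common median 15 rose (25.4%), beside 26.0% of all, so the share that rose was at or below the background on both scales. Those with the smallest p were Mrps36 (log2 change 0.84), Mrpl4 (0.57), Mrps21 (0.60) and Mrpl12 (0.57). Cytosolic and mitochondrial ribosomal protein genes thus had medians of opposite sign on the deposited scale and in the other 3 scalings, with -0.69 and 0.17 under cyclic loess; their difference was not tested as such.

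The lymphocyte, thymus and cell cycle genes described above fell in the same pools as the TOP and biogenesis lists, and their part in those results was not tested.

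Among S6 kinase and mTOR pathway genes the median log2 change was 0.32. Of the 20 genes of this list 11 had a single-symbol probe set. With the common median 4 of the 10 tested rose (40%, beside 26.0% of all), and without the filter on dim probe sets 2 of 11 (18.2%, beside 3.88% of all). On the deposited scale 4 of the 10 tested rose (40%, beside 17.7% of all tested probe sets) and none fell. They were Tsc2, which holds mTOR back (2.14-fold, limma adjusted p = 8.4e-04), the translation inhibitors Eif4ebp2 (1.53-fold) and Eif4ebp1 (1.66-fold), and Akt1s1, an inhibitory subunit of the mTOR complex (1.61-fold). Mtor itself had a log2 change of 0.31 (limma adjusted p = 0.223), the S6 kinase gene Rps6kb2 one of -0.24 (limma adjusted p = 0.563) and Larp1 one of -0.13 (limma adjusted p = 0.534).

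**Figure D5:**
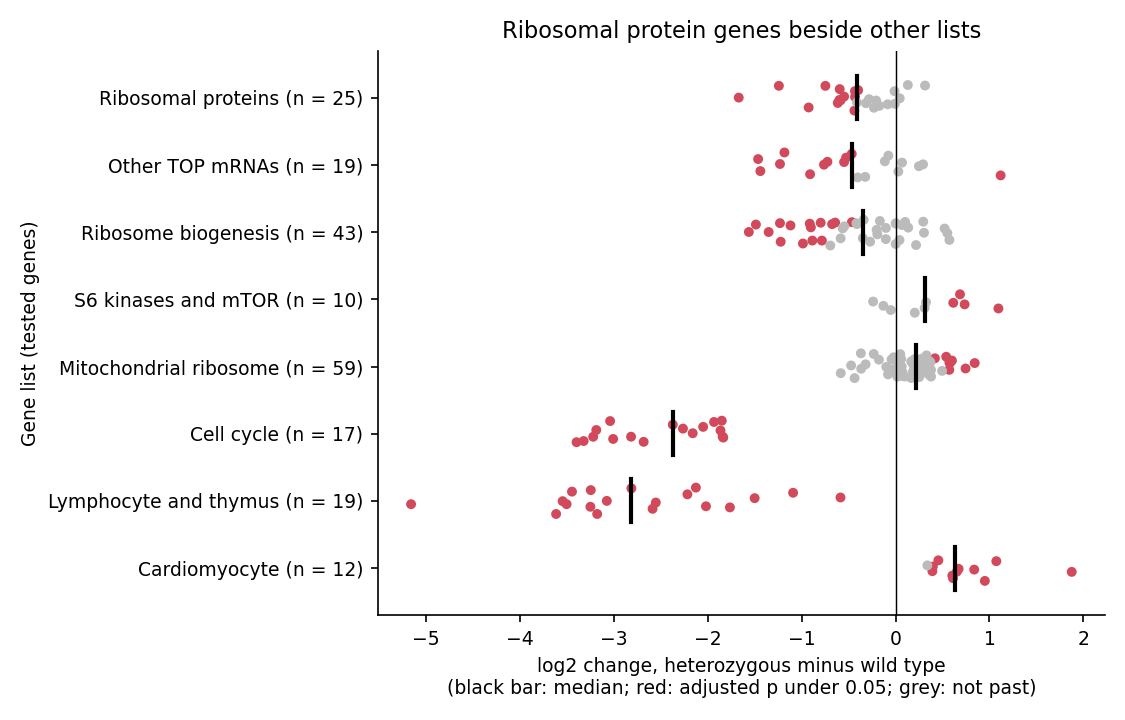
Log2 change (heterozygous minus wild type) of the tested genes of 8 lists, 1 point per gene, red where past the adjusted threshold of 0.05 and grey where not, with the median as a black bar. The medians of ribosomal proteins (-0.41), other TOP messages (-0.47) and ribosome biogenesis genes (-0.35) lie below 0, those of lymphocyte and thymus markers (-2.81) and cell cycle genes (-2.37) far below, and those of the mitochondrial ribosome (0.22) and cardiomyocyte markers (0.63) above.

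On the deposited scale, of the tested markers of other cell types 7 of 9 rose for fibroblasts and matrix, 8 of 9 for endothelium, 1 of 6 for smooth muscle and 2 of 3 for red blood cells, and none of these fell. Over all tested probe sets 17.7% rose. For fibroblasts and matrix 6 rose under quantile normalization and 5 under cyclic loess. Without the filter on dim probe sets 1 of 10 rose for fibroblasts and matrix, 4 of 9 for endothelium and none for smooth muscle and red blood cells, beside 3.88% of all. For smooth muscle 3 rose with the common median. Of 7 macrophage markers 1 fell and none rose on the deposited scale and under cyclic loess, whereas none fell and 1 rose with the common median and under quantile normalization. Their summed signal was 23119 to 24868 in wild type and 22898 to 23557 in the heterozygous pools. No marker list held a gene whose signals were all under the floor. Their part in the ribosomal protein result was not tested.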

How the data were processed

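The authors deposited intensities on a linear scale for 12488 probe sets of 4 arrays; how they were summarised is not stated in the sources used here. Trimmed means (2% at each end) differed at most 1.01-fold between arrays, so the deposited intensities were used unscaled. Signals under the 10th percentile (36.25) were set to that value before log2. After removal of 66 controls, the 40% of 12422 probe sets with the lowest mean log2 signal were left out, and 7454 were fitted with limma 3.58.1 (lmFit, eBayes with trend) under R 4.3.3, by genotype alone, with Benjamini-Hochberg adjustment over all of them. The fit was tested on simulated data. SE is the standard error from limma; fold changes compare mean log2 signals. For arrays, their number limits the precision, and the smallest p of an exact permutation test at this size is 0.333. Symbols came from the platform annotation of 2016, and all 36 members were found by gene ID in GRCm38.p6. Values are given for the 10 members that fell with the smallest p, the stalk and fusion members, paralogs, members whose probe sets disagreed or were untested, up to 4 genes of each other list with the smallest p, and up to 6 markers of heart and of lymphocytes and thymus. Other genes named with values, such as the brightest members, the reference genes, Eef1a1, Eef1b2, Eef2, Tpt1, Mtor, Rps6kb2 and Larp1, were chosen after their values were seen. Rplp1, Rplp2, Rps6 and Rps27a had no single-symbol probe set here. Members and lists were chosen with earlier results of these data known. The gene in which mice were heterozygous is not reported here. Alternatives changed the scaling, the floor, the filter, the moderation, the threshold and the pools used. Plots were drawn with matplotlib.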

Additional observations from a re-analysis of the deposited data

How the results depend on the processing

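The direction of the median and the absence of higher members held in each alternative, and the number of genes that fell did not hold in all. On the deposited scale 13 of 25 genes fell, with a median log2 change of -0.41. The number was 4 with a common median (16%, beside 14.99% of all tested probe sets, median -0.23). It was 4 without the filter on dim probe sets (11.1% of 36 genes tested, beside 5.83% of all, median -0.30). Without a mean-variance trend it was 8 (32%, beside 18.5% of all), and at a threshold of 0.01 it was 8 (32%, beside 12.6% of all). The median was -0.59 under quantile normalization, -0.69 under cyclic loess and -0.35 with only the lowest 20% left out. Leaving out 1 pool gave 3 to 11 genes and medians from -0.43 to -0.35; the smallest numbers, 4 and 3, came without heterozygous pool 1 and pool 2 (16% and 12% of members, beside 15.1% and 14.4% of all tested probe sets in those fits), where 1 pool is assumed to vary like the others. The cause was not tested. Higher calls made up 47.2% of all calls on the deposited scale and 63.5% with the common median. Of 374 log2 changes of single members under alternatives, 303 kept direction and side of the threshold, 47 no longer passed, 10 newly passed and 14 changed sign. The last were values of genes that had not passed on the deposited scale, and that of Rps24 under cyclic loess passed as a decrease. With the common median they included Rpl41 (0.17), Rps18 (0.095), Rps28 (0.17) and Rps27 (0.0059). Under quantile normalization they included Rpl37a (-0.0088) and Rps24 (-0.27). Under cyclic loess they included Rpl37a (-0.066) and Rps24 (-0.36, limma adjusted p = 0.0260). With 1 pool left out, Rpl41 ran from -0.14 to 0.13, Rps28 from -0.12 to 0.10, Rps29 from -0.00059 to 0.63 and Rpl37a from -0.083 to 0.34. Deviations of same-numbered pools from their genotype mean correlated at 0.16, and nothing pairs the pools by design. With the pool number as a block 14 members fell (56%, beside 20.9% of all tested probe sets) and none rose. The restriction to plain probe sets and the fit without the probe set annotated as Rps24 were chosen after seeing the data. Dim signals near the floor limit what the 11 untested genes can show.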
